A study of Mus musculus with 12 samples.

Results

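Messenger RNAs of 27 genes of cholesterol synthesis and sterol control were examined in mouse pancreatic islets: 18 enzymes that build cholesterol from acetyl-CoA, 4 genes of the sterol-sensing switch SREBP2 and 5 genes of sterol transport, storage and lipoprotein receptor turnover. They were taken as a named list, and all 27 were among the 24421 gene symbols of the count files. Bulk RNA sequencing was done on islets, the hormone-secreting cell clusters of the pancreas, from mice fed a high-fat diet for 6 weeks. Of 12 libraries, 6 came from Il22ra1βKO mice (here BKO), whose insulin-producing β cells lack interleukin-22 receptor subunit alpha 1, and 6 from Ins2Cre mice (here Cre). Both groups had the same diet. Ins2Cre is a Cre recombinase driven by an insulin gene promoter, so that recombination is directed to β cells, whereas islets also hold other endocrine, vascular and stromal cells. The sources used here give no age, sex or list of alleles. Nor do they state that different libraries came from different animals, and p-values therefore describe only the spread of these libraries, which may be technical.

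Cells make cholesterol by joining acetyl-CoA into mevalonate, turning mevalonate into isoprenoid units, condensing these to squalene, closing squalene to the first sterol, lanosterol, and trimming lanosterol to cholesterol. When membrane cholesterol is low, Scap escorts the SREBP2 precursor out of the endoplasmic reticulum, and its released fragment switches on most genes of the route; Insig proteins hold Scap back when sterols are plentiful. Excess sterol is esterified by Soat1 or exported by ABC transporters, whose genes are switched on by the oxysterol receptors LXR. In β cells, membrane cholesterol is known to affect insulin granules and the exocytosis machinery.

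Promoters of these genes are shown first, because the motifs of sterol control can be read from them. Of the 27 genes, 22 had an entry among the RefSeq promoter windows of GRCm38.p6, and the 250 bases before each annotated start were searched on both strands. The sterol regulatory element core TCACNCCAC was in the window of Hmgcs1 alone, against 1.26% of the 10363 tested genes with a window. The overlapping shorter form TCACCCCA was in 2, Hmgcs1 and Srebf2, against 1.64%. CCAAT, the box bound by NF-Y, a known partner of SREBP2, was in 19 of the 22 (86.4%), against 39.6% of tested genes. The E-box CACGTG was in 6, Abca1, Dhcr7, Hsd17b7, Insig1, Sc5d and Scap (27.3%), against 9.87%. A match is a description of letters and does not show that a factor is bound there, and a missing match does not show that none is. Genes without a window were not searched, so their absence from these lists is no result.

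The upstream bases of 4 genes, up to the first annotated transcript start, stand for these patterns, with the searched motifs in capitals (CCAAT appears as ATTGG where it lies on the other strand). Hmgcs1 holds both forms of the sterol element beside ATTGG, Srebf2 holds the shorter form beside ATTGG, Lss holds ATTGG alone, and Abca1 holds the E-box without CCAAT. Hmgcs1 is from chr13:119690101-119690350, plus strand. Srebf2 is from chr15:82147019-82147180, plus strand. Lss is from chr10:76531355-76531587, plus strand. Abca1 is from chr4:53159896-53160145, minus strand.
Hmgcs1: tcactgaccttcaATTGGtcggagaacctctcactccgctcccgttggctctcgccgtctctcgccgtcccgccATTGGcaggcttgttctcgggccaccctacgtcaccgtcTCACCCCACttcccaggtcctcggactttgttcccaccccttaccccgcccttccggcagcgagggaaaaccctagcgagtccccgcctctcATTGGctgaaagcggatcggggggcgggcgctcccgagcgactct
Srebf2: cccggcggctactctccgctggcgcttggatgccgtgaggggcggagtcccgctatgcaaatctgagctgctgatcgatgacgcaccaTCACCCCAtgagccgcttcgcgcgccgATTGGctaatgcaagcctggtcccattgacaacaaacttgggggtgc
Lss: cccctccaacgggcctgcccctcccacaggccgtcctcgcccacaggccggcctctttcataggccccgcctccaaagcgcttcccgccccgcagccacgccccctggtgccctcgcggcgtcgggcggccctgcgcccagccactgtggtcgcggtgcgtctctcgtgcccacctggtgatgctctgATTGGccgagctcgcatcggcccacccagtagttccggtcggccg
Abca1: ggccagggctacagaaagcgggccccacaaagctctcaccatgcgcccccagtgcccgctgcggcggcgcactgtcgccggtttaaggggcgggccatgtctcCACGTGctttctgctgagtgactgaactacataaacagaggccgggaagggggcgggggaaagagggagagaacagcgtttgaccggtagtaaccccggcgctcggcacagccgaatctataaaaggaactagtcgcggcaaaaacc

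All 27 transcripts were detected with at least 97 reads in every library (Tm7sf2 the lowest), and counting error weighs most on the low ones. Exons of 9 of the 27 overlap another annotated gene, on the same strand for Fdps and Tm7sf2 and on the opposite strand for Cyp51, Fdft1, Hmgcs1, Idi1, Lss, Mvd and Scap, and since the strand setting is unknown their reads may include some of that gene. Gene totals lay between 10356093 and 11902217 reads in BKO libraries and between 11444273 and 12397139 in Cre libraries (p = 0.0152 by a two-sided exact permutation test, 0.106 after Benjamini-Hochberg adjustment over 7 library measures). Il22ra1, the targeted gene, had between 1 and 3 reads in BKO libraries and between 1 and 5 in Cre libraries, so whole-islet counts do not check the genotype. The summed level of 12 β-cell markers was between 98627 and 157048 CPM (reads scaled to a common library total) in BKO and between 122149 and 153484 CPM in Cre, so both groups were islet RNA. The mean log2 CPM of 12 endothelial markers was higher in BKO (5.59 ± 0.199 against 5.08 ± 0.229, SD, n = 6 each; p = 0.00866 by a two-sided exact permutation test, 0.0623 after adjustment over 9 marker lists). That of the β-cell markers was lower (9.77 ± 0.200 against 9.997 ± 0.0934; exact permutation p = 0.0346, adjusted 0.0623). Of the 12 β-cell markers, 11 had negative log2 fold changes, with a median of -0.23. Among them Ins2, the insulin gene in the name Ins2Cre, had a log2 fold change of -0.07 ± 0.12. All 9 markers of alpha, delta and PP cells and all 12 of endothelium had positive log2 fold changes, with medians of 0.36 and 0.46. So had 11 of 12 stellate markers (median 0.44). None of these markers passed the test after adjustment, nor did any other gene. At an unadjusted edgeR p under 0.05 were 7 of the 9, all 12 endothelial and 7 of the 12 stellate markers. Of all genes, 13.4% were, in either direction. By that rule 5 of the 12 β-cell markers were also found. The score of alpha, delta and PP cells was 8.44 ± 0.283 in BKO against 8.05 ± 0.231 (exact permutation p = 0.0260, adjusted 0.0623). That of 10 duct markers was 5.19 ± 0.325 against 4.68 ± 0.341 (exact permutation p = 0.0216, adjusted 0.0623). Of these duct markers, 6 had positive and 4 had negative log2 fold changes (median 0.51). Macrophage markers had 9 of 10 negative values (median -0.41; score exact permutation p = 0.139, adjusted 0.179). Acinar markers summed to between 1438 and 5101 CPM in BKO and between 298 and 6416 CPM in Cre. The part of these differences in the results was examined only by the fits with the endothelial, β-cell and acinar scores as covariates. That of the other lists was not tested. The endothelial and β-cell scores themselves differed in mean by genotype, with overlapping ranges, so these fits separate score and genotype poorly. Standard errors were larger in them (for Fdps, 0.081 and 0.063 against 0.051 without a covariate). In bulk islets, fewer cells of a type and less RNA per cell cannot be told apart.

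Squalene epoxidase and Insig1 led the pathway when levels were set per length. Sqle, which oxidises squalene and is a major control point of the route, had the highest length-scaled level, 49.2 ± 6.07 CPM per kilobase of exon (SD over 12 libraries). Insig1 followed at 36.9 ± 2.50. Fdps, which makes farnesyl diphosphate, the branch point to sterols and protein prenylation, was at 27.2 ± 2.75. Fdft1 (squalene synthase), Pmvk, Srebf2, Ebp, Hmgcs1 and Abca1 lay between 25.9 and 19.6, and Insig2, Msmo1, Cyp51, Scap and Abcg1 between 18.8 and 14.3. The lower tier ran from Sc5d (9.11) to Hsd17b7 (3.80), with Tm7sf2, a sterol reductase whose step a second enzyme can also carry out, lowest at 2.26 ± 0.376. Of the 26 neighbouring pairs in this order, 21 had mean ± SD ranges that met; the exceptions were the steps below Sqle, Insig1, Abcg1, Sc5d and Hsd17b7. Exon lengths are unions over all annotated transcripts, so that a gene with long annotated exons, such as Lss (10787 bases), is scaled down by more.

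**Figure D1:**
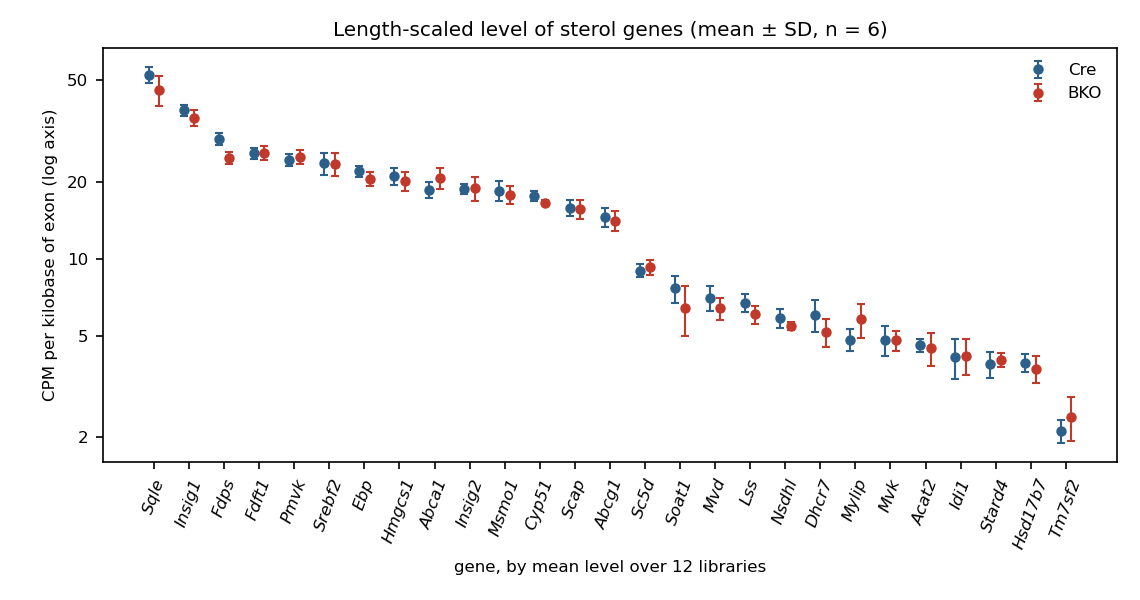
Length-scaled level of the 27 genes (vertical log axis, CPM per kilobase of exon; points, mean and bars, SD over 6 libraries of each genotype), ordered by the mean over 12 libraries. Sqle stands highest at 49.2 and Tm7sf2 lowest at 2.26, and the order is led by the same 2 genes, Sqle and Insig1, in Cre and BKO.

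No sterol gene passed the test between genotypes, and most synthesis enzymes had slightly lower values in BKO. With edgeR's quasi-likelihood test and Benjamini-Hochberg adjustment over 13583 genes, 0 of the 27 genes had an adjusted p under 0.05, as had 0% of all genes. Of the 18 enzymes, 13 had a negative log2 fold change (72.2%), against 47.2% of all genes tested, and their median was -0.073 against 0.0078. At an unadjusted p under 0.05, 4 of the 27 genes were lower in BKO, Fdps, Sqle, Lss and Dhcr7, where 4.66% of all genes were lower by that rule. At the same unadjusted threshold 2 were higher, Mylip and Abca1, where 8.7% of all genes were higher, so that count does not stand above the background. DESeq2 on the same counts called 1 of the 27 lower, Fdps, against 0.398% of the genes it tested, and limma-voom called 0. In 6 of the 27 genes (Fdps, Lss, Cyp51, Nsdhl, Dhcr7 and Insig1) all 6 BKO libraries lay below the Cre mean, against 5.47% of all genes, and in 0 all 6 lay above it, against 7.05%.

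**Figure D2:**
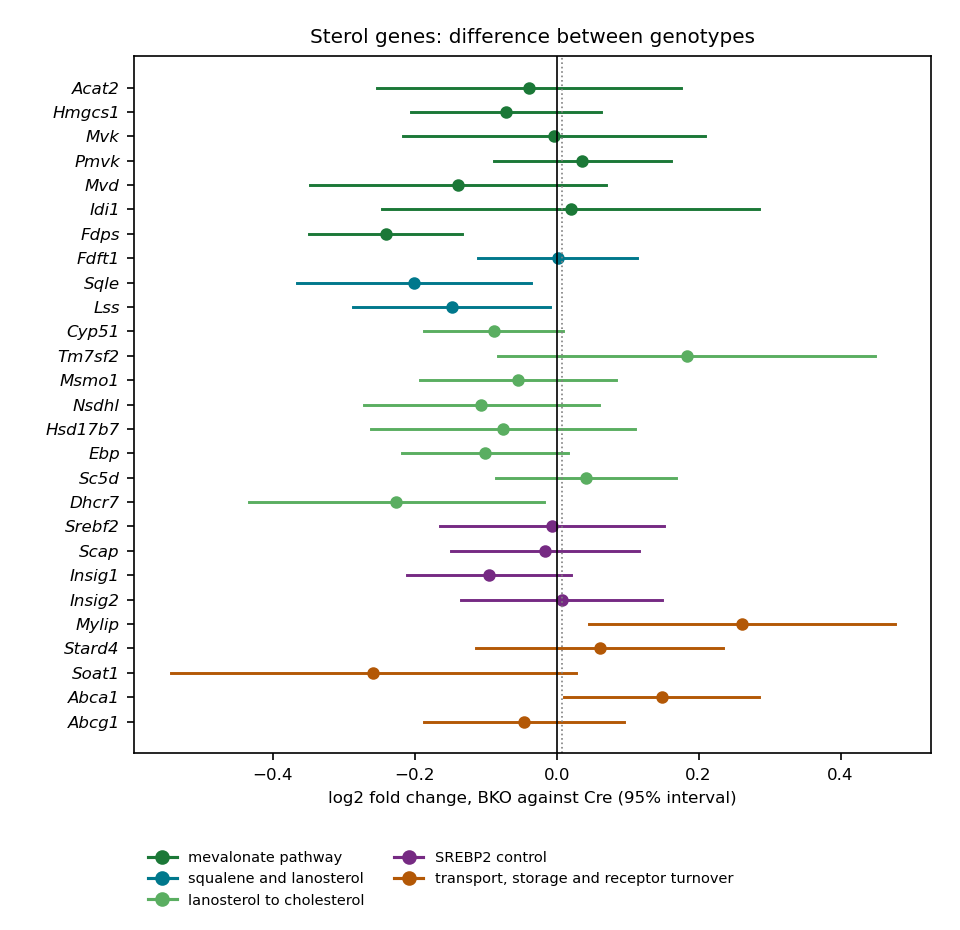
Log2 fold change of each gene, BKO against Cre (points), with its 95% interval from the edgeR fit (lines), coloured by role; the dotted line is the median of all 13583 genes. The intervals of 21 of the 27 genes span 0, and those of Fdps, Sqle, Lss and Dhcr7 lie below it and of Mylip and Abca1 above it, before any adjustment.

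Added over the 18 enzymes, transcripts of cholesterol synthesis were lower in BKO, and Fdps and Sqle made up most of the gap. The BKO sum averaged 1069.8 ± 41.2 CPM against 1156 ± 15.5 for Cre (SD over 6 libraries), a difference of -7.44%. By library it was 1053, 1016, 1076, 1131, 1044 and 1100.2 CPM in BKO-1 to BKO-6 and 1151, 1131, 1153, 1170, 1175 and 1156 CPM in Cre-1 to Cre-6. The highest BKO library (BKO-4, 1130.5) and the lowest Cre library (Cre-2, 1130.7) all but met. Fdps and Sqle accounted for 57.1 of the 86.0 CPM between the means. Without these 2 genes the sums were 711 ± 24.0 and 740.1 ± 22.4 CPM and overlapped. With plain library totals in place of TMM scaling the full sums also overlapped (up to 1128 in BKO, from 1114 in Cre). The sum was formed after the single values had been seen and is given without a test.

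Of the 7 mevalonate pathway genes, Fdps alone had an interval that did not reach 0, before adjustment. In BKO its lowest, median and highest values were 97.6, 104 and 113.6 CPM, and in Cre they were 114.1, 127 and 129 CPM. The groups did not overlap, although the highest BKO library (BKO-1) and the lowest Cre library (Cre-6) were within 1 CPM of each other; 0.177% of all genes were separated in that direction. The log2 fold change was -0.24 ± 0.051 (SE; 95% interval -0.35 to -0.13), a level 15.4% lower in BKO, and its edgeR adjusted p of 0.121 was the smallest of any gene, shared by 33. The DESeq2 adjusted p was 0.00534 and that of limma-voom 0.0664. Fdps was called by edgeR without BKO-4 (adjusted p = 0.0311) and without Cre-5 (adjusted p = 0.0389). Both fits also called other genes over the table (135 higher and 127 lower without BKO-4), where the main fit called 0. Over all alternatives the adjusted p of Fdps ranged from 0.00534 to 0.996. With the endothelial score as a covariate the log2 fold change was -0.12 ± 0.081, and with the β-cell score it was -0.18 ± 0.063 (SE). The gene lies on chromosome 3 from 89093588 to 89101959 (GRCm38, minus strand), and Gm43738 overlaps its exons on the same strand, so reads in the shared part cannot be assigned with certainty.

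The enzymes before Fdps had log2 fold changes closer to 0. Hmgcs1, which condenses acetoacetyl-CoA to HMG-CoA, ranged from 84.4 to 104.8 CPM in BKO (median 91.7) and from 90.8 to 107.6 CPM in Cre (median 93.5). Its groups overlapped over most of their range, at a log2 fold change of -0.07 with a 95% interval of -0.20 to 0.06. Mvd, the decarboxylase that yields isopentenyl diphosphate, was at 11.9 ± 1.18 against 13.1 ± 1.47 CPM, a log2 fold change of -0.14 (-0.35 to 0.07). Acat2 (cytosolic thiolase), the kinases Mvk and Pmvk, and the isomerase Idi1 had log2 fold changes between -0.04 and 0.04. Their intervals allow differences of up to 16.1% lower (Acat2) or 21.9% higher (Idi1) in BKO, so that equal levels are not shown. Idi1 was also the most variable enzyme, with a coefficient of variation within genotypes of 17.0%. Acat2 has a close mouse paralog, Acat3, and the split of reads between them is uncertain.

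Between farnesyl diphosphate and lanosterol, Sqle and Lss had lower values in BKO and Fdft1 did not. Sqle was at 208, 252 and 309.5 CPM (lowest, median, highest) in BKO and at 269, 289 and 329 CPM in Cre. Of the 6 BKO libraries, 5 lay below the Cre mean and below every Cre library; BKO-4 alone stood within the Cre range. Sqle had a log2 fold change of -0.20 ± 0.078 (95% interval -0.37 to -0.04; edgeR adjusted p = 0.277). Each library was left out in turn, and BKO-4 is named for its value. Without BKO-4 Sqle was at -0.28 and was called by edgeR (adjusted p = 0.0465). That fit also called 135 genes higher and 127 lower over the table, where the main fit called 0. With the endothelial score as a covariate, the log2 fold change of Sqle was -0.11 ± 0.13. Lss, which closes squalene epoxide to lanosterol, was at 58.7, 64.9 and 71.5 CPM in BKO and at 64.9, 71.6 and 81.1 CPM in Cre. Every BKO library was below the Cre mean but the ranges overlapped, with a log2 fold change of -0.15 ± 0.066 (edgeR adjusted p = 0.342); 4930483K19Rik overlaps its exons on the opposite strand. Fdft1, which commits farnesyl diphosphate to squalene between Fdps and Sqle, averaged 109.7 ± 7.16 against 109.6 ± 5.44 CPM. Its interval of -7.40% to 8.20% does not reach the difference seen for Fdps; differences between genes were not tested.

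**Figure D3:**
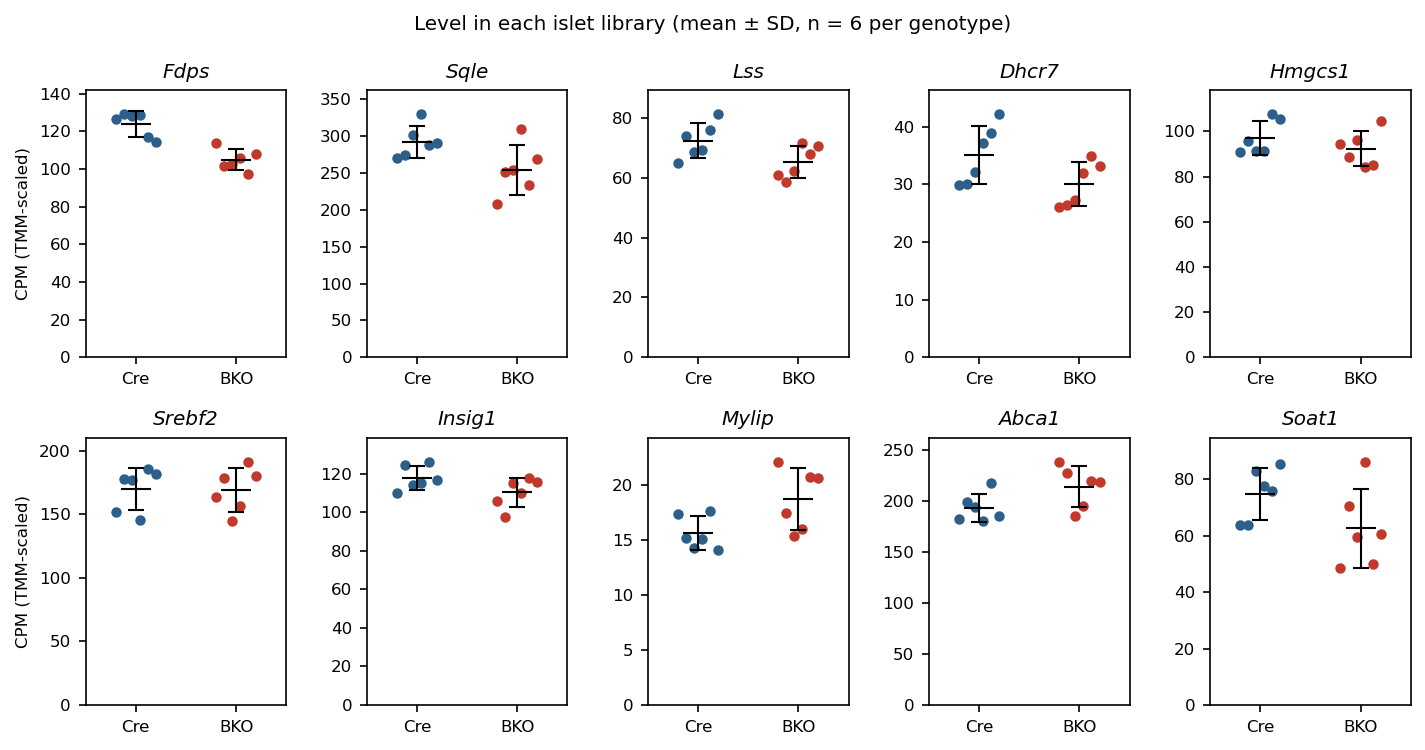
TMM-scaled CPM of 10 genes in each library (points; blue, Cre, red, BKO), with mean ± SD of 6 libraries in black. The Fdps points of the genotypes do not overlap, Sqle, Lss and Dhcr7 overlap with lower BKO means, Srebf2 has nearly equal means, and Mylip and Abca1 have higher BKO means with overlap.

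Of the 8 enzymes from lanosterol to cholesterol, 6 had a negative log2 fold change, and Dhcr7 was the only one at an unadjusted p under 0.05. Dhcr7, the reductase that completes cholesterol from its immediate precursor, was at 26.1, 29.7 and 34.9 CPM in BKO and at 29.9, 34.7 and 42.1 CPM in Cre. Each BKO library was below the Cre mean of 35.1 CPM, but the ranges overlapped. Its log2 fold change was -0.23 ± 0.099 (95% interval -0.43 to -0.02; edgeR adjusted p = 0.331). It was -0.36 ± 0.16 with the endothelial score as a covariate and -0.14 ± 0.10 with the acinar score. Cyp51, the lanosterol demethylase, varied least of all 27 genes (3.85% within genotypes). Its values ran from 71.2 to 76.3 CPM in BKO and from 74.6 to 84.6 CPM in Cre. Its log2 fold change of -0.09 ± 0.046 did not pass (edgeR adjusted p = 0.432). Ebp, a sterol isomerase, was at -0.10, the demethylation enzyme Nsdhl at -0.11, the ketosterol reductase Hsd17b7 at -0.08 and the methylsterol oxidase Msmo1 at -0.05 on the log2 scale, and the intervals of these 4 span 0. Sc5d, a desaturase, was at 0.04. Tm7sf2 was at 10.6 ± 2.03 against 9.31 ± 0.974 CPM, a log2 fold change of 0.18 (-0.08 to 0.45), with BKO-1 (13.6), BKO-3 (12.2) and BKO-5 (11.0) above all Cre libraries and BKO-2 (8.66), BKO-4 (8.89) and BKO-6 (9.10) below the Cre mean. Tm7sf2 shares exonic sequence with Vps51 on the same strand.

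For 3 of the 4 genes of the sterol-sensing switch the groups had nearly the same mean, with intervals given beside each. Srebf2, which encodes SREBP2 and is itself one of its targets, was at 145, 171 and 191 CPM (lowest, median, highest) in BKO and at 145, 178 and 185 CPM in Cre. The ranges coincided, and the 95% interval of the difference was -10.7% to 11.1%. Scap, the sterol sensor that escorts SREBP2, was at 116 ± 9.60 against 118 ± 8.64 CPM (-9.79% to 8.37%). Insig2, the Insig form that is not switched on by SREBP2, was at 65.6 ± 7.03 against 65.3 ± 3.10 CPM (-8.88% to 10.8%). Insig1, which is an SREBP target and so a common readout of pathway activity, was at 97.5, 113 and 118 CPM in BKO and at 110.3, 116 and 126 CPM in Cre. All 6 BKO libraries were below the Cre mean, with wide overlap, at a log2 fold change of -0.10 ± 0.055 (edgeR adjusted p = 0.489). With the endothelial score as a covariate Srebf2 was at -0.21 ± 0.11 on the log2 scale, against -0.01 ± 0.075 without it (SE). The mean of that score differed by genotype, so the shift cannot be read as an adjusted effect.

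Among transport and storage genes, Mylip and Abca1 had higher and Soat1 lower values in BKO, none past the test. Mylip and Abca1 are known LXR targets, but so is Abcg1, which was not higher. At an unadjusted edgeR p under 0.05, only these 2 of the 27 genes were higher. That is no larger a share than the 8.7% of all genes. Mylip, a ubiquitin ligase that marks lipoprotein receptors for degradation, was at 15.4, 19.02 and 22.1 CPM in BKO and at 14.1, 15.1 and 17.6 CPM in Cre. BKO-1, BKO-5 and BKO-6 lay above every Cre library and the other 3 within the Cre range. Mylip had a log2 fold change of 0.26 ± 0.10 (95% interval 0.05 to 0.48; edgeR adjusted p = 0.280). Abca1, which exports cholesterol to apolipoproteins, was at 185, 219 and 238 in BKO and at 180.4, 189.5 and 217 CPM in Cre. Its log2 fold change was 0.15 ± 0.065 (edgeR adjusted p = 0.335). With the endothelial score as a covariate these log2 fold changes were 0.07 ± 0.16 for Mylip and 0.01 ± 0.10 for Abca1. Abcg1, an exporter that is also an LXR target, was at 103 ± 9.38 against 106 ± 8.75 CPM and had a log2 fold change of -0.05 (-0.19 to 0.10). Soat1, which esterifies cholesterol for storage, varied most of all 27 genes (17.3%). Its values were 48.6, 60.1 and 86.2 in BKO and 63.7, 76.8 and 85.3 CPM in Cre. The log2 fold change was -0.26 ± 0.13 (edgeR adjusted p = 0.432). BKO-4 held the highest Soat1 value of all 12 libraries, whereas BKO-1, BKO-3, BKO-5 and BKO-6 lay below every Cre library. Without BKO-4, named for its value, the log2 fold change of Soat1 was -0.39 (edgeR adjusted p = 0.0737). That fit called 135 genes higher and 127 lower over the table. Stard4, a cytosolic sterol carrier and SREBP2 target, was at 22.5 ± 1.48 against 21.5 ± 2.44 CPM, at 0.06.

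**Figure D4:**
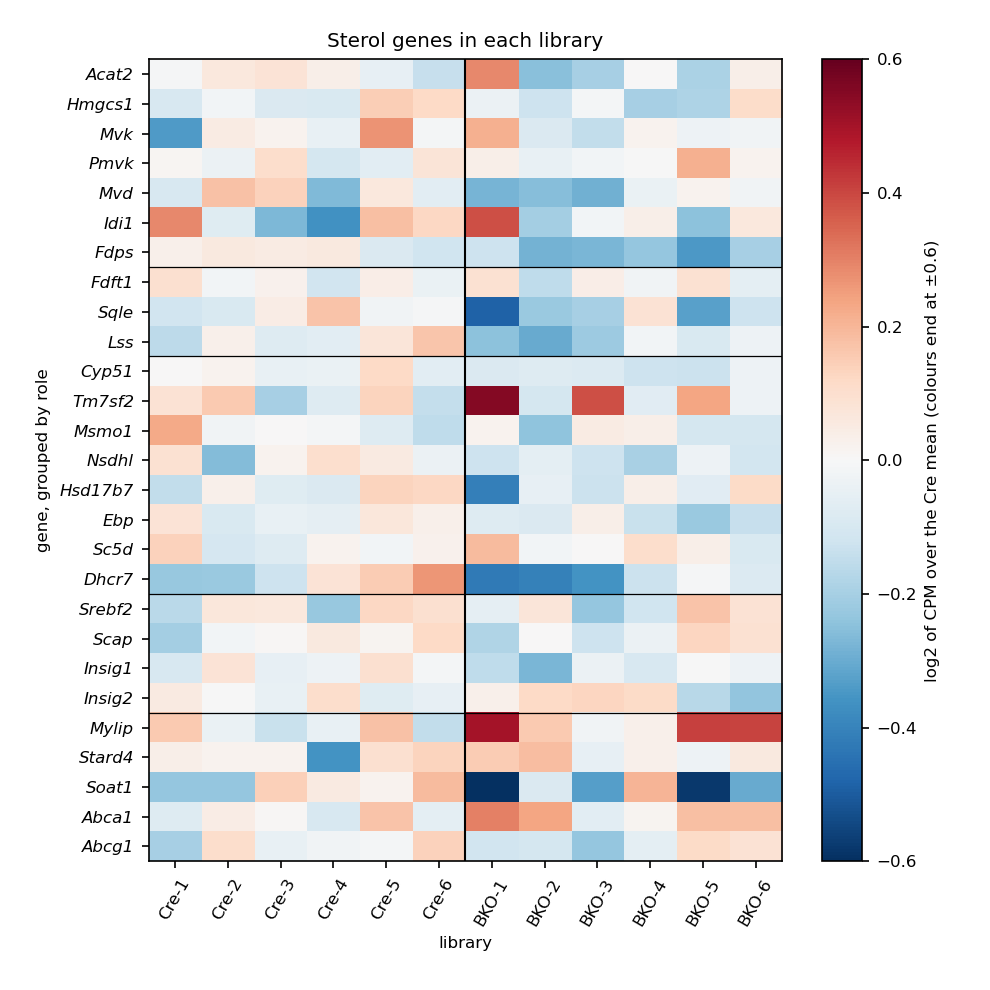
Log2 of each library's CPM over the Cre mean for the 27 genes (rows, grouped by role; columns, libraries; red, above and blue, below the Cre mean). Fdps, Lss, Cyp51, Nsdhl, Dhcr7 and Insig1 are blue in all 6 BKO columns, and BKO-1 is at once among the bluest for Sqle and Soat1 and among the reddest for Mylip and Tm7sf2.

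Other genes of the sterol pathway had log2 fold changes spread about 0. Of 53 listed, 48 were tested, and 0 passed in either direction, with a median log2 fold change of -0.0069, 23 positive and 25 negative values. At an unadjusted p under 0.05, 2 of the 48 were higher, where 8.7% of all genes were, and 2 lower, where 4.66% were, so neither count stands above the background. These 4 are named by rule, as those with the smallest p. Fntb, the farnesyltransferase subunit that uses the product of Fdps for protein prenylation, averaged 25.5 ± 1.91 against 29.0 ± 2.39 CPM, with a log2 fold change of -0.19 ± 0.071 (edgeR adjusted p = 0.266). Osbpl2, a sterol-binding transfer protein, was at -0.12 ± 0.051, with all 6 BKO libraries below the Cre mean. Gramd1a, which carries cholesterol from the plasma membrane to the endoplasmic reticulum, was at 0.17 ± 0.074. Cav1, the caveolar protein abundant in endothelium, was at 15.4 ± 1.99 against 11.4 ± 3.57 CPM (0.43 ± 0.17), in libraries whose endothelial marker list had a median of 0.46. The 12 genes that process or degrade the SREBP machinery ranged from -0.11 to 0.07, with 5 positive and 7 negative.

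From library to library, correlations among the sterol genes were of both signs. After genotype means were removed, the median Pearson r over the 153 pairs of enzymes was 0.017 over 12 libraries, against -0.00065 over pairs among 2716 genes taken at regular steps from all those tested; these are descriptions, and all genes share the depth and cell makeup of the same libraries. Over the 351 pairs of all 27 genes r ran from -0.78 to 0.84, and the pairs named here were picked for being far from 0, with no test. Lss and Dhcr7 had an r of 0.80, Lss and Hsd17b7 of 0.75, and Dhcr7 and Scap of 0.79. Acat2 and Fdps had an r of 0.84, the highest of the 351 pairs, while Fdps and Srebf2 were at -0.44. Sqle was at 0.84 with Soat1 and at -0.72 with Tm7sf2. It was at -0.77 with the score of alpha, delta and PP cell markers and at -0.72 with that of Schwann cell and neuron markers. The part of these lists in the Sqle values was not tested. Fdps was at -0.62 with the endothelial score and at 0.50 with the β-cell score. Abca1 was at 0.72 with the score of stellate and pericyte markers, whose part in the Abca1 values was not tested. Srebf2 and Insig2 were at -0.73. Mylip and Abca1 were at 0.70, and both had higher BKO means. Each value rests on 12 libraries, and counting error weakens r for genes with few reads. A shared variation of these genes could therefore be missed.

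**Figure D5:**
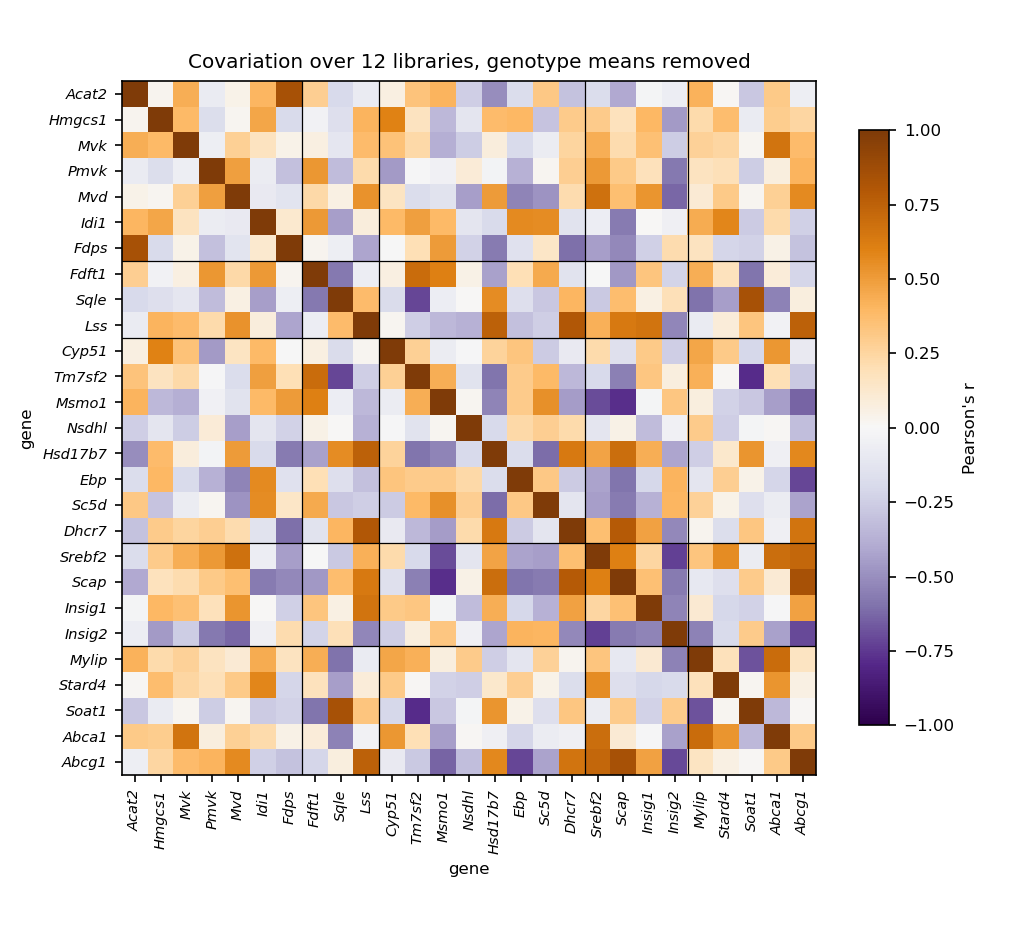
Pearson's r between genes over 12 libraries, as deviations of log2 CPM from the genotype means (brown, positive; purple, negative), with lines between role groups. Blocks on the diagonal are mixed in sign, and high values occur within a role (Acat2 with Fdps, 0.84) and between roles (Sqle with Soat1, 0.84).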

How the data were processed

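Total RNA from islets was made into paired-end libraries and sequenced on a NovaSeq instrument, per the labels' protocols. Reads were aligned with HISAT2 2.0.5 to mm10 and counted with HTSeq, per the submitters' processing notes; the HTSeq version, the annotation and whether strand was used were not stated in those notes. Deposited per-sample files hold raw read counts per gene symbol and 5 summary lines, which entered neither library sizes nor tests and held on average 37.2% of reads in BKO and 38.3% in Cre. A deposited series-wide table was not used here.

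The test was edgeR 4.0.16 in R 4.3.3 (filterByExpr, TMM, robust glmQLFit, glmQLFTest, Benjamini-Hochberg over 13583 genes, threshold 0.05) on 6 BKO and 6 Cre libraries. CPM values use TMM-scaled totals; standard errors and 95% intervals come from the same fit. Length-scaled levels divide CPM by the exon union of GENCODE M21 (GRCm38, which is mm10). Exact permutation tests use all 924 splits (smallest p 0.00216). Alternatives were RLE and upper-quartile scaling, 2 other count filters, DESeq2 1.42.0, limma-voom (limma 3.58.1), no robust shrinkage, 3 marker scores as covariates, the replicate number as a block, a threshold of 0.1 and each library left out. The code was tested on simulated data. The genes and lists were chosen with earlier results of these data known. Named genes were all 27 genes, the 4 other pathway genes with the smallest p, Il22ra1 and Ins2. Pairs of libraries within a group differed by more than read sampling gives (chi-square over its degrees of freedom, 5.07 to 30.2). That spread may be technical and does not show that libraries came from different animals. Each library was counted once in the tests.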

Additional observations from a re-analysis of the deposited data

Results flagged for a closer look

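Among 54 groups of 6 values (27 genes in each genotype), 2 held a library whose gap to its nearest neighbour was a large part of the group's range; chance flags about 1 group in 20. Pmvk, a mevalonate pathway kinase, was at 48.5 CPM in BKO-5, above the next BKO library at 42.8 CPM. Stard4, the cytosolic sterol carrier, was at 16.8 CPM in Cre-4, below the next Cre library at 21.8 CPM.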

How the results depend on the processing

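Fdps and Sqle had negative log2 fold changes under every alternative run, and the count of sterol genes with a negative value stayed between 17 and 21. Whether a gene was called depended on the tool and on single libraries. Over the table, DESeq2 called 169 genes higher and 54 lower, and 1 of the 27, Fdps, lower. Leaving out a library gave 0 to 135 genes higher, 0 to 127 lower and 0 to 2 of the 27 lower; 135 and 127 were without BKO-4, and without Cre-5 there were 105 higher and 5 lower. With the replicate number as a block, edgeR called 292 genes higher and 72 lower, and 2 of the 27 lower, Fdps (adjusted p = 0.0205) and Sqle (0.0364). The labels do not say that a number pairs libraries, so the block is not read as a pairing. Same-numbered libraries correlated between -0.0725 and 0.2643, over 0.1 in 4 of 6, and 4 of 6 correlated best with their own number. Whether the numbers pair libraries was not tested. The cause of the differences in calls was not tested either.

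Signs changed for genes with log2 fold changes near 0. The endothelial covariate gave medians of -0.11 for SREBP2 control and -0.059 for transport and storage, and the β-cell covariate -0.081 for SREBP2 control; leaving out a library gave -0.0092 (without Cre-4) to 0.081 for transport and storage. Under the endothelial covariate, Acat2 was at 0.15, Idi1 at -0.042, Fdft1 at -0.013, Msmo1 at 0.042 and Stard4 at -0.059. Under the β-cell covariate, Acat2 was at 0.081, Mvk at 0.060 and Pmvk at -0.014. Under the acinar covariate, Mvk was at 0.023, Fdft1 at -0.0063, Srebf2 at 0.0025, Scap at 0.0064 and Insig2 at -0.016. Fdft1 was at -0.0085 with RLE, -0.012 without a filter, -0.0039 with at least 10 reads, -0.0086 with DESeq2 and -0.018 with limma-voom. Insig2 was at -0.0028 with RLE, -0.0060 without a filter, -0.0025 with DESeq2 and -0.0055 with limma-voom. Mvk was at 0.0012 with upper-quartile scaling and 0.00052 with the replicate block. Leaving out a library gave ranges of -0.030 to 0.016 for Fdft1, -0.074 to 0.068 for Idi1, -0.032 to 0.036 for Insig2, -0.080 to 0.056 for Mvk, -0.014 to 0.046 for Pmvk, -0.071 to 0.0075 for Scap, -0.057 to 0.034 for Srebf2 and -0.0092 to 0.081 for Stard4.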
